A study of Mus musculus with 10 samples.

Results

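The endoplasmic reticulum (ER) folding and collagen processing genes described here are a list of 34 genes for the chaperones, disulfide isomerases, collagen-modifying enzymes, translocon subunits and stress response factors of the ER. A gene entered through probe sets annotated to its symbol alone, with the older name Tra1 accepted for Hsp90b1, and the brightest such probe set stood for it. By this rule 32 of the 34 were measured, among 12393 genes in all. No probe set carried Fkbp10, and Sec61g stood only on a probe set shared with other symbols, so neither has a value. The 32 genes were divided into 7 collagen-processing members (P4ha1, P4ha2, P4hb, Plod1, Plod2, Plod3 and Serpinh1) and 25 others, and together they had 66 probe sets.

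Ventricular RNA of mice was hybridised to Affymetrix 3′ expression arrays. There were 3 arrays of the transgenic line alpha-TM175, 4 of the line alpha-TM180 and 3 of nontransgenic controls (NTG), with no treatment in any group. From background knowledge both lines express a mutant alpha-tropomyosin, the coiled-coil protein of the thin filament, from a heart muscle promoter, and alpha-TM180 is the more severe model of hypertrophic cardiomyopathy. Age, sex, strain and promoter are not given in the labels. Within each genotype 1 array carried RNA pooled from 20 hearts and the others carried individual extracts, which gives 3 pooled and 7 individual arrays. The labels do not say whether the hearts measured alone also went into the pools.

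Proteins bound for secretion enter the ER through the Sec61 channel, are folded by Hspa5 (BiP), Hsp90b1 and the calnexin and calreticulin lectins, and receive disulfide bonds from the isomerases. Procollagen needs further steps: prolyl 4-hydroxylases stabilise its triple helix, lysyl hydroxylases prepare its cross-links, and Serpinh1 (Hsp47) binds the folded helix until export. When unfolded protein accumulates, the sensors Ire1, Perk and Atf6 induce chaperones and degradation genes through Xbp1, Atf4 and Atf6. In the heart most collagen is made by fibroblasts, whereas these ER genes are used by all cell types.

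Median intensity per array ran from 66.6 to 71.0. The first principal component, with 47.4% of the variance, set the 3 pooled arrays at 30.11 to 39.78 apart from the 7 individual arrays at -31.58 to 2.65. Tpm1, which encodes alpha-tropomyosin, averaged 16039 ± 553 in alpha-TM175 and 16555 ± 741 in alpha-TM180, against 12282 ± 987 in NTG (intensity, SD, n = 3, 4 and 3), and neither line overlapped NTG. Array 1 of alpha-TM175 stood apart from its group in Nppa and Xist. Its Nppa intensity was 521.4, against 5478 and 3822 on the other alpha-TM175 arrays and 635.4 to 906.1 in NTG. Its Xist intensity was 987.6, against 129.9 and 414.1. The pools differed in Xist too, at 414.1 in alpha-TM175, 393.7 in alpha-TM180 and 148.8 in NTG. The remaining individual arrays had Xist at 99.52 to 136.2. The 6 cardiomyocyte markers summed to 26540 to 33420 over the 10 arrays.

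No member passed the test in either mutant line. Over all 22626 probe sets tested with limma, 0 of the 32 members had an adjusted p under 0.05 in alpha-TM175 against NTG, where 0.0161% of all genes did, and 0 in alpha-TM180 against NTG, where 0.573% did. With extract type (pooled or individual) in the model the counts stayed at 0, beside 0.904% and 2.32% of all genes. The same held for every one of the 66 probe sets. At an unadjusted p under 0.05 there were 4 members in alpha-TM175, where 14.5% of all genes passed, and 6 in alpha-TM180, where 10.3% did, so that 12.5% of the members passed in alpha-TM175 and 18.8% in alpha-TM180. These were Atf4 above NTG and Dnajb9, Canx and Ssr3 below it in alpha-TM175, and Plod2, P4ha1, P4hb and Atf4 above and Herpud1 and Dnajb9 below in alpha-TM180.

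The intervals bound how large a change could be. In alpha-TM180 the 95% interval of the fold change lay within 1.5-fold in either direction for 22 of 32 members and within 2-fold for all 32. Of all 12393 genes, 10378 lay within 1.5-fold and 12058 within 2-fold. The share within 1.5-fold was thus smaller among the members than among all genes. In alpha-TM175 the interval lay within 1.5-fold for 21 members and within 2-fold for 31, and the exception was Dnajb9. Of all 12393 genes, 9102 lay within 1.5-fold there and 12074 within 2-fold, so the share within 1.5-fold was again smaller among the members. Over the collagen chains, the clients of these enzymes, 5 of 14 were called higher in alpha-TM180, and the 95% interval stayed within 2-fold for 1 of the 14.

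**Figure D1:**
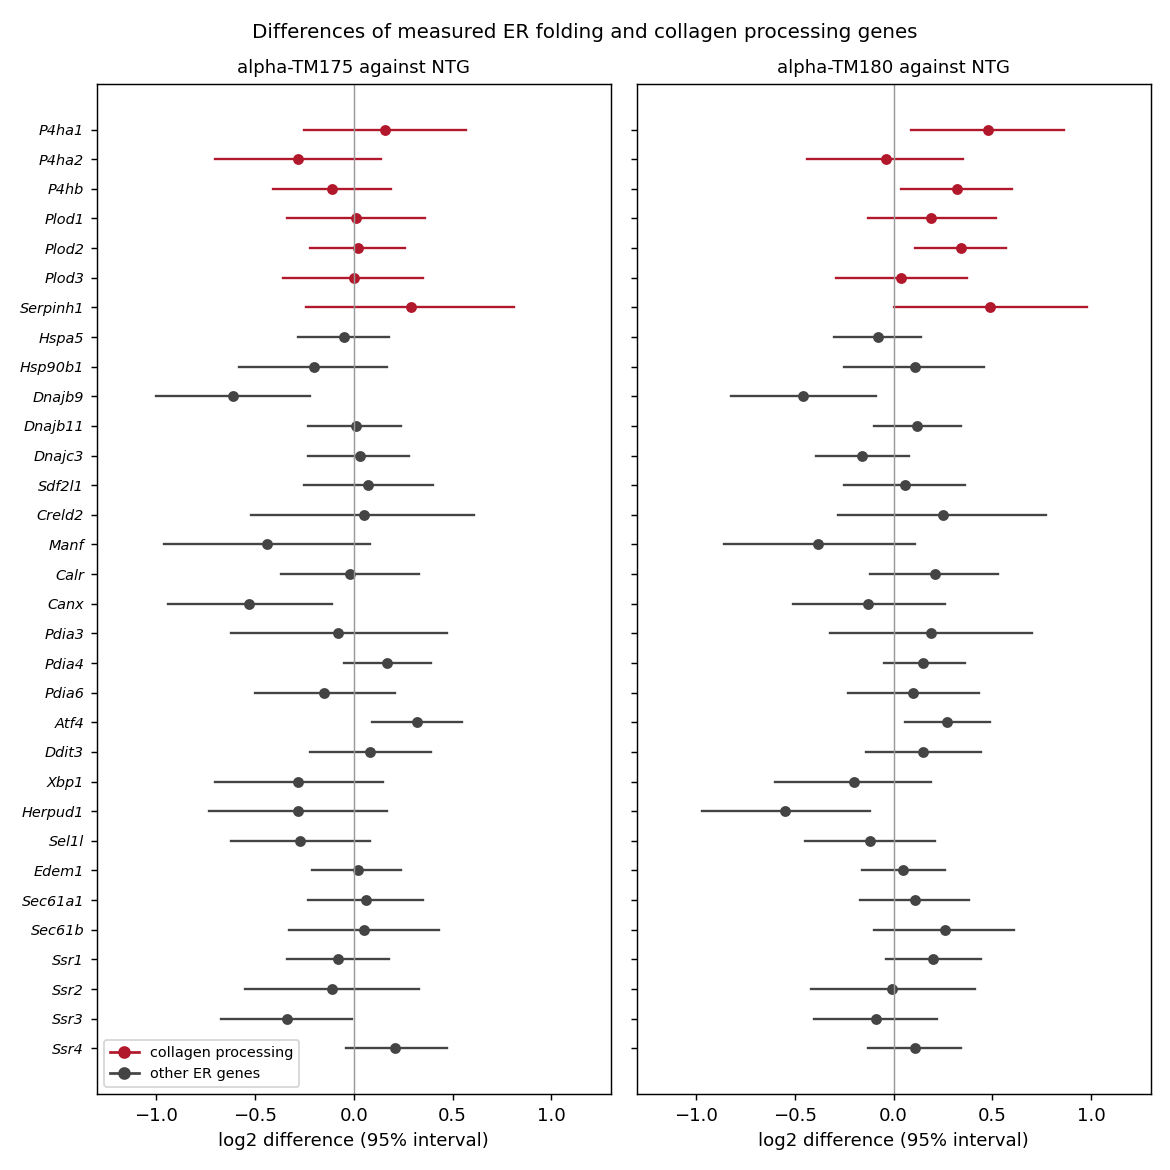
Log2 difference (x axis) with its 95% interval for each of the 32 measured members (rows), alpha-TM175 against NTG on the left and alpha-TM180 against NTG on the right. Red marks the 7 collagen-processing members and grey the 25 others. In alpha-TM180 6 of the 7 red points lie above 0, whereas the grey points lie on both sides, 15 above and 10 below, and no member passed the test.

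The prolyl 4-hydroxylase is a tetramer of catalytic alpha subunits, encoded by P4ha1 or P4ha2, and of beta subunits encoded by P4hb, which is also protein disulfide isomerase. P4ha1 had intensities of 125.3, 180.1 and 167.1 in alpha-TM175, of 159.3, 234, 182.8 and 205.1 in alpha-TM180, and of 147.7, 113.2 and 160.5 in NTG. In alpha-TM180 3 of the 4 arrays lay above every NTG array and the other lay just below the highest one. The alpha-TM180 difference from NTG was 0.48 ± 0.17 (log2, SE), a 1.39-fold value (95% interval 1.07 to 1.82, adjusted p 0.365), and the alpha-TM175 difference was 1.12-fold (0.843 to 1.49, adjusted p 0.726). The dimmer probe set of P4ha1 gave -0.05 in both lines, so the 2 probe sets did not show the same difference. P4ha2 had 239, 412.4 and 316.7 in alpha-TM175, 382.4, 418.4, 353.7 and 333.9 in alpha-TM180, and 464.5, 358.2 and 335.4 in NTG. These groups overlapped, at 0.824-fold (0.615 to 1.10) in alpha-TM175 and 0.97-fold (0.738 to 1.28) in alpha-TM180.

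P4hb separated alpha-TM180 from both other groups. Its intensities were 753.2, 1021 and 1005 in alpha-TM175, 1221, 1414, 1077 and 1254 in alpha-TM180, and 1004, 954.2 and 1014 in NTG, so that the lowest alpha-TM180 array exceeded every other array. The group means were 926 ± 150 in alpha-TM175, 1242 ± 138 in alpha-TM180 and 991 ± 32.0 in NTG (SD, n = 3, 4 and 3). In alpha-TM180 against NTG this was 1.25-fold (1.03 to 1.52, adjusted p 0.438), and in alpha-TM175 against NTG 0.927-fold (0.752 to 1.14, adjusted p 0.75).

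The lysyl hydroxylases Plod1, Plod2 and Plod3 differ in their targets. Plod2 acts on the telopeptides from which collagen cross-links form, and Plod1 on the helix. Plod3 also adds glucose to galactosylhydroxylysine. Plod2 intensities were 249.5, 276.5 and 251.3 in alpha-TM175, 358.6, 320.1, 308.2 and 308.4 in alpha-TM180, and 256.4, 284.8 and 227.5 in NTG. As for P4hb, all 4 alpha-TM180 arrays exceeded the 6 others on this, the brighter probe set. The difference from NTG was 0.34 ± 0.10 (log2, SE) in alpha-TM180, 1.27-fold (1.08 to 1.48, adjusted p 0.238), the smallest adjusted p of any member in this comparison, and 0.02 ± 0.11 in alpha-TM175, 1.01-fold (0.858 to 1.20, adjusted p 0.952). On the dimmer Plod2 probe set alpha-TM180 overlapped NTG, at 88.89 to 386.7 against 86.72 to 238. Its difference was 0.20 in alpha-TM180 (log2, limma adjusted p 0.998) and -0.0 in alpha-TM175. Plod1 had 414.5, 539.6 and 551 in alpha-TM175, 521, 710.2, 516.6 and 536.9 in alpha-TM180, and 518.8, 433.7 and 538.3 in NTG. A single array, alpha-TM180 array 2, stood out there, and the fold changes were 1.01 (0.79 to 1.28) in alpha-TM175 and 1.14 (0.912 to 1.43) in alpha-TM180. Plod3 had 342.1, 432.3 and 397.1 in alpha-TM175, 387.1, 515.5, 322.2 and 398.4 in alpha-TM180, and 419.8, 363.7 and 388.1 in NTG. Its group means were nearly equal, with fold changes of 0.997 (0.781 to 1.27) in alpha-TM175 and 1.03 (0.817 to 1.29) in alpha-TM180.

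Serpinh1, the collagen chaperone, had intensities of 859, 1490 and 1294 in alpha-TM175, 1134, 1803, 1198 and 1397 in alpha-TM180, and 1119, 753.9 and 1078 in NTG. All alpha-TM180 arrays lay above NTG, the lowest by a narrow margin, while in alpha-TM175 1 array lay within the NTG range and 2 lay above it. The differences were 0.49 ± 0.22 in alpha-TM180 (log2, SE), 1.40-fold (0.999 to 1.97, adjusted p 0.536), and 0.29 ± 0.24 in alpha-TM175, 1.22-fold (0.849 to 1.76, adjusted p 0.618). The second probe set gave 0.29 in alpha-TM180 and 0.14 in alpha-TM175. On it alpha-TM180 overlapped NTG, at 885.4 to 1273 against 717.4 to 968. Without NTG array 2, the lowest array, the brighter probe set gave 0.31 in alpha-TM180 and 0.11 in alpha-TM175.

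**Figure D2:**
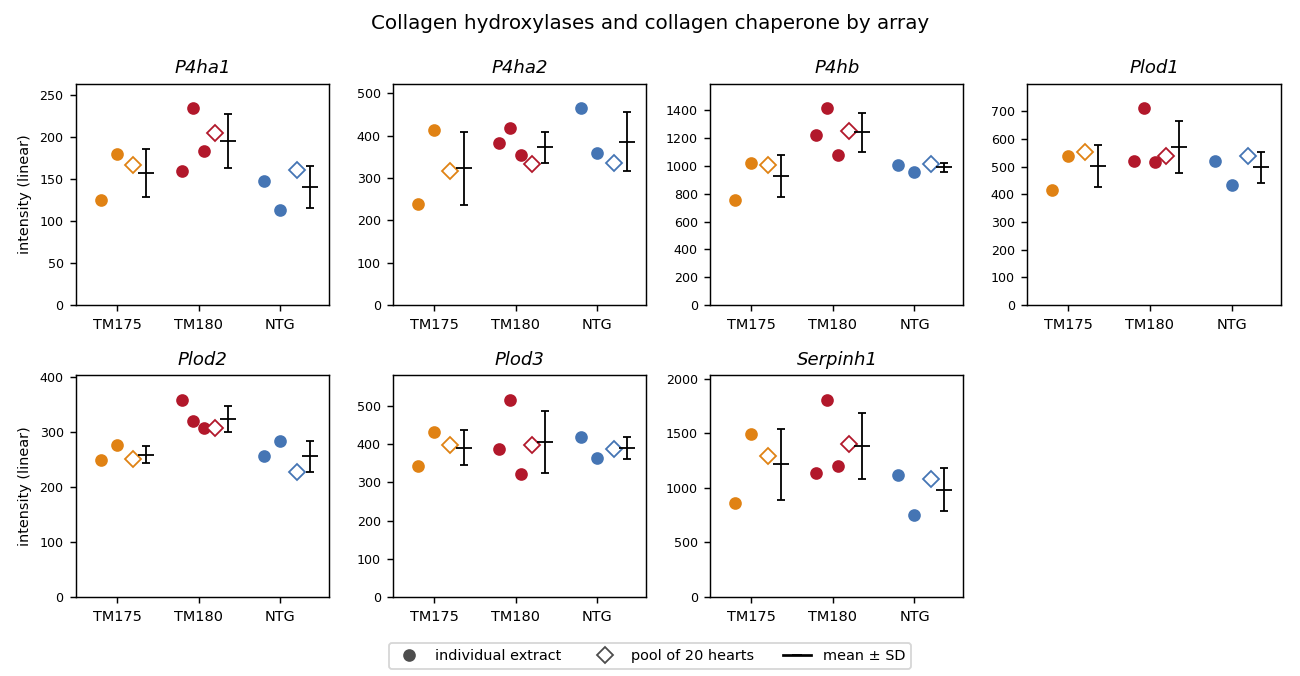
Intensity (linear, y axis) of the 7 collagen-processing members on each array, in alpha-TM175, alpha-TM180 and NTG from left to right. Circles are individual extracts, open diamonds the pools of 20 hearts, and bars the mean ± SD. For P4hb and Plod2 the 4 alpha-TM180 arrays lie above all others; the other 5 genes overlap in at least 1 comparison.

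As a group the 7 collagen-processing members had a median log2 difference of 0.32 in alpha-TM180, with 6 of 7 above 0, and of 0.01 in alpha-TM175, with 4 of 7 above 0. The 25 other members had medians of 0.10 in alpha-TM180 and -0.05 in alpha-TM175, and all genes of 0.00 in alpha-TM180 and 0.04 in alpha-TM175. On the pooled arrays alone, 1 per genotype and so without a test, the medians of the 7 were 0.31 in alpha-TM180 and 0.03 in alpha-TM175. In alpha-TM180 3 of the 7 (P4hb, Plod2 and Serpinh1) had arrays that all lay above NTG on the brightest probe set, beside 6.74% of all genes. Plod2 and Serpinh1 overlapped NTG on their dimmer probe set. Leaving out alpha-TM180 array 2, the highest array for 5 of the 7, gave a median of 0.25 in alpha-TM180. Leaving out alpha-TM175 array 1 gave a median of 0.09 in alpha-TM175, where Serpinh1 then differed from NTG by 0.52 and P4ha1 by 0.32, against 0.29 and 0.16 with it (log2).

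The collagen chains had larger differences than the enzymes that modify them. All 14 chains were above 0 in both lines, with median log2 differences of 0.99 in alpha-TM180 and 0.50 in alpha-TM175. In alpha-TM180 5 rose (Col1a1, Col1a2, Col5a2, Col6a1 and Col15a1), and 12 with extract type in the model. Col1a1 had 370.1, 537 and 699.6 in alpha-TM175, 767.8, 1289, 873.3 and 1079 in alpha-TM180, and 266.4, 203.4 and 349 in NTG, 3.69-fold in alpha-TM180 (2.51 to 5.41, adjusted p 0.015). Of 17 further measured genes for collagen modification and export, none passed in either line without extract type in the model; 6 in alpha-TM180 and 2 in alpha-TM175 had an unadjusted p under 0.05. With extract type in the model 3 rose in alpha-TM180: Pcolce, which speeds removal of the C-propeptide, at 1.86-fold (1.47 to 2.37, adjusted p 0.014), and the cross-linking oxidases Loxl1 at 2.01-fold (1.53 to 2.64, adjusted p 0.0143) and Lox at 1.40-fold (1.19 to 1.66, adjusted p 0.042). These 3 act outside the cell, after the ER steps of the 7 members.

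Markers of fibroblasts lay above NTG alongside. In alpha-TM180 1 of 8 passed the test, and it was Col1a1, already counted among the collagen chains. In alpha-TM175 0 passed. With extract type in the model 3 passed in alpha-TM180 and 1 in alpha-TM175. All 8, which include Col1a1, were above 0 in alpha-TM180 with a median of 0.33 and 7 of 8 in alpha-TM175 with a median of 0.24. Their summed intensity was 5442 to 8355 in alpha-TM175, 6434 to 9163 in alpha-TM180 and 4389 to 6132 in NTG, so alpha-TM180 lay wholly above NTG. The highest sum of each group was on its pooled array. In pooled against individual extracts all 8 were above 0, with a median of 0.41 and 3 called, where 20.1% of all genes were called. Some markers of other cell types lay higher in alpha-TM180 too, with all 5 endothelial and all 5 smooth muscle and pericyte markers above 0 and none passing in either model. Of the macrophage markers 4 of 5 were above 0. All 6 cardiomyocyte markers were below 0 in alpha-TM180, with a median of -0.12, and none passed. Both plasma and B cell markers were below 0 in alpha-TM180 as well. In alpha-TM175 all 5 endothelial markers were also above 0, with a median of 0.24 against 0.13 in alpha-TM180. There 4 of 5 smooth muscle and pericyte markers, 1 of 5 macrophage markers and both plasma and B cell markers were above 0. Of the cardiomyocyte markers 5 of 6 were below 0 in alpha-TM175, with the same median of -0.12. The mean log2 level over NTG of the endothelial list was 0.19 to 0.29 on alpha-TM180 arrays, against -0.02 to 0.03 in NTG. That of the smooth muscle and pericyte list was 0.16 to 0.46 on alpha-TM180 arrays, against -0.12 to 0.08 in NTG. On alpha-TM175 arrays the endothelial list reached 0.46 and the smooth muscle and pericyte list ran from -0.09 to 0.28. Whether any of these markers had a part in the P4hb, Plod2 and Serpinh1 values was not tested. In whole ventricle more cells of a type and more RNA per cell cannot be told apart.

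**Figure D3:**
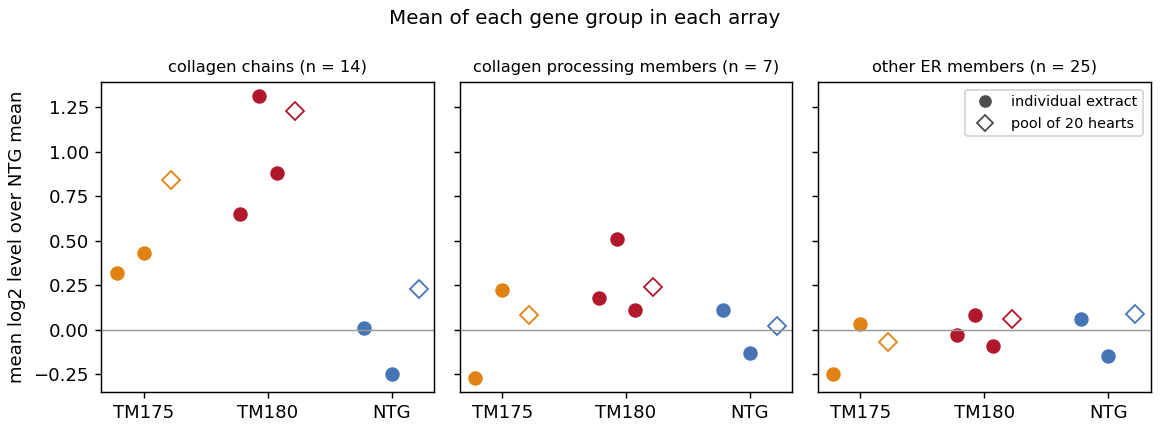
Mean log2 level over the NTG mean (y axis) of 14 collagen chains, the 7 collagen-processing members and the 25 other members on each array, with alpha-TM175, alpha-TM180 and NTG from left to right. Circles are individual extracts and open diamonds pools of 20 hearts. Collagen chains lie at 0.65 to 1.31 in alpha-TM180 and at -0.25 to 0.23 in NTG; the collagen-processing members at 0.11 to 0.51 in alpha-TM180 and -0.13 to 0.11 in NTG; the others overlap throughout.

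The remaining members belong to the general folding machinery, part of which is induced through the ER stress response element (ERSE), bound by Atf6 and Xbp1 with NF-Y. RefSeq promoters (GRCm38.p6, 250 bases before to 50 after the start) were found for 29 members and for 17492 genes. The element, CCAAT and CCACG with 9 bases of any kind between them, was searched on both strands. It occurred in 7 of the 29 members, against 0.166% of all genes. The matches are printed on the strand that holds them, with the CCAAT and CCACG parts in capitals, to show which members carry these letters.

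Calr: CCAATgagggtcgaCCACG
Canx: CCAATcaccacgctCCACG
Creld2: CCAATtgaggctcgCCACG
Dnajc3: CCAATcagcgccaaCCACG
Hsp90b1: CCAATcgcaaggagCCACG
Hsp90b1: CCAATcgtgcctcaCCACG
Hspa5: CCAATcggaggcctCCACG
Pdia6: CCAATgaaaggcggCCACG

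Hsp90b1 held 2 matches. Those of Calr and Creld2 and the second of Hsp90b1 lay on the strand opposite the gene. Counted from the start site, the base furthest upstream on the gene's strand lay at -162 in Calr, -145 in Canx, -126 in Creld2, -105 in Dnajc3, -212 and -107 in Hsp90b1, -65 in Hspa5 and -98 in Pdia6. For a match on the opposite strand this is the last base printed. The related ERSE-II element, ATTGG and CCACG with 1 base between them, occurred in 2 other members, at 8 in Dnajb11 and -52 in Herpud1, against 0.0629% of all genes.

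Dnajb11: ATTGGcCCACG
Herpud1: ATTGGgCCACG

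The letters TGACGTGG (UPRE) and TGATGNAAT (CARE, read by Atf4) occurred in 0 of the 29 windows, against 0.823% and 0.926% of all genes. The 250 bases before the start of Hspa5, the classic ERSE promoter (chr2:34771840-34772089, plus strand), and of Herpud1 (chr8:94386179-94386428, plus strand) are printed whole because their levels differ in what follows, with the element in capitals; a match is a description of the letters and not a shown binding site.

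Hspa5: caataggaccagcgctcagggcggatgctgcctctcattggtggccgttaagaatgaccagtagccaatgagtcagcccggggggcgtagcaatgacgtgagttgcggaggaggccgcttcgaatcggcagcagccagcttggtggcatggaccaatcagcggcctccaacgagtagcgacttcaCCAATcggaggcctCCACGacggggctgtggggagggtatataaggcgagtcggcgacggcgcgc
Herpud1: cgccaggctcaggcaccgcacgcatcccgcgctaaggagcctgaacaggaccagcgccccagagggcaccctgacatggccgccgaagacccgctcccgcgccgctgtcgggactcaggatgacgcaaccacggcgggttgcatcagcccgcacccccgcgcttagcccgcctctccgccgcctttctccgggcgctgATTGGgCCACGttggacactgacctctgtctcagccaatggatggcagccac

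The 9 members with either element lay on both sides of NTG. Their median log2 difference was 0.10 in alpha-TM180, with 5 above 0, and -0.05 in alpha-TM175, with 3 above 0, and none passed the test.

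Hspa5, the main ER chaperone of the Hsp70 family and the standard readout of ER stress, had 1275, 1531 and 1214 in alpha-TM175, 1307, 1381, 1298 and 1247 in alpha-TM180, and 1403, 1436 and 1304 in NTG. The groups overlapped. The fold changes were 0.966 in alpha-TM175 (0.822 to 1.14, adjusted p 0.861) and 0.947 in alpha-TM180 (0.815 to 1.10, adjusted p 0.969), so a rise above 1.14-fold lies outside both intervals. The second Hspa5 probe set was also below 0, at -0.44 in alpha-TM175 and -0.33 in alpha-TM180. Hsp90b1, the ER member of the Hsp90 family, had 225.2, 360 and 313.8 in alpha-TM175, 339.1, 330.6, 402.5 and 389.9 in alpha-TM180, and 342, 296.9 and 382.3 in NTG. It overlapped as well, at 0.869-fold (0.669 to 1.13) in alpha-TM175 and 1.08-fold (0.843 to 1.37) in alpha-TM180. The dimmer Hsp90b1 probe set gave -0.53 in alpha-TM175 and -0.36 in alpha-TM180 (log2).

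Dnajb9, an Hspa5 cochaperone that acts in degradation and is a target of spliced Xbp1, was the member furthest below NTG in alpha-TM175. Its intensities were 277, 301.6 and 312.9 in alpha-TM175, 309.1, 278.8, 329.3 and 419.2 in alpha-TM180, and 506.4, 349.7 and 525.2 in NTG. No alpha-TM175 array reached the NTG range, where 8.95% of all genes were lower without overlap; in alpha-TM180 the pooled array did. The differences were -0.61 ± 0.18 in alpha-TM175 (log2, SE), 0.655-fold (0.499 to 0.86, adjusted p 0.22), and -0.46 ± 0.17 in alpha-TM180, 0.729-fold (0.565 to 0.941, adjusted p 0.366). With extract type in the model the adjusted p was 0.0523 in alpha-TM175 and 0.123 in alpha-TM180. The former was the smallest against NTG among the brightest probe sets of the members. A dimmer Ssr4 probe set had 0.0516 in alpha-TM175. In that model Dnajb9 passed once NTG array 2 was left out (adjusted p 0.0199), a setting in which 5.64% of all genes passed.

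The other 5 cochaperones and ER chaperones spread around 0. Manf, a secreted stress-induced factor, gave -0.44 in alpha-TM175 and -0.38 in alpha-TM180 (0.738-fold and 0.771-fold), with intervals that crossed 1. In alpha-TM175 Creld2 gave 0.05, Sdf2l1 0.07 and Dnajb11 0.01, and in alpha-TM180 they gave 0.25, 0.06 and 0.12 in that order. Dnajc3, which binds misfolded client proteins with Hspa5, lay below NTG on all alpha-TM180 arrays, 91.79 to 107.8 against 109.5 to 114, a 0.897-fold value (0.762 to 1.06, adjusted p 0.802), and in alpha-TM175 it was 1.02-fold. The dimmer Dnajc3 probe sets overlapped NTG in alpha-TM180, with log2 differences of 0.10, -0.16, -0.23 and -0.17. On the brightest probe set 2 members, Dnajc3 and Herpud1, were lower in alpha-TM180 without overlap, beside 4.22% of all genes.

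Calr and Canx are the lectin chaperones that hold glycoproteins during folding, and Calr also binds calcium in the ER. Calr had 1533, 1965 and 1248 in alpha-TM175, 1648, 2068, 1969 and 1652 in alpha-TM180, and 1567, 1636 and 1541 in NTG. All 4 alpha-TM180 arrays exceeded NTG on the brightest probe set, the lowest narrowly, beside 6.74% of all genes. The fold change was 1.15 (0.92 to 1.45, limma adjusted p 0.827) in alpha-TM180 and 0.984 (0.772 to 1.25) in alpha-TM175. On the dimmer Calr probe sets alpha-TM180 overlapped NTG, with log2 differences of 0.16 and 0.19. Canx gave -0.53 in alpha-TM175, 0.694-fold (0.521 to 0.926, adjusted p 0.291), and -0.13 in alpha-TM180, 0.916-fold (0.70 to 1.20). Among the disulfide isomerases, in alpha-TM175 Pdia4 gave 0.17, Pdia3 -0.08 and Pdia6 -0.15, and in alpha-TM180 Pdia4 gave 0.15, Pdia3 0.19 and Pdia6 0.10.

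Atf4, the transcription factor translated when Perk phosphorylates eIF2alpha, was above NTG in both lines. Its intensities were 879.2, 932.8 and 786.9 in alpha-TM175, 826.9, 898.3, 846.1 and 782.9 in alpha-TM180, and 762.9, 674.7 and 645.4 in NTG. Every transgenic array exceeded every NTG array, and 9.12% of all genes were higher without overlap in alpha-TM175. The differences were 0.32 ± 0.11 in alpha-TM175 (log2, SE), 1.25-fold (1.06 to 1.47, adjusted p 0.256), and 0.27 ± 0.10 in alpha-TM180, 1.21-fold (1.04 to 1.41, adjusted p 0.354). Both lines were set against the same 3 NTG arrays, so the 2 values are not independent. A second Atf4 probe set gave 0.38 in alpha-TM175 and 0.31 in alpha-TM180, and another, dim one gave 0.10 in alpha-TM175 and -0.09 in alpha-TM180.

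Ddit3 (Chop), the apoptosis-linked factor downstream of Atf4, had 160.2, 191.4 and 186.6 in alpha-TM175, 221.9, 176.4, 189.6 and 165.4 in alpha-TM180, and 190.8, 145.5 and 172.9 in NTG. The groups overlapped, at 1.06-fold (0.857 to 1.31) in alpha-TM175 and 1.11-fold (0.909 to 1.35) in alpha-TM180. Xbp1, whose messenger RNA is spliced by Ire1, had 527.6, 539.5 and 513.3 in alpha-TM175, 509.5, 554, 453.2 and 734.9 in alpha-TM180, and 613.2, 514.6 and 821.5 in NTG. Its pooled arrays were the highest of alpha-TM180 and of NTG, and the fold changes were 0.826 (0.615 to 1.11) in alpha-TM175 and 0.868 (0.659 to 1.14) in alpha-TM180. Splicing itself was not measured.

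Herpud1, a component of ER-associated degradation and the gene with the ERSE-II promoter printed above, had 754.7, 1140 and 682.2 in alpha-TM175, 868.7, 547.3, 769.3 and 640.6 in alpha-TM180, and 1032, 948.2 and 1072 in NTG. All 4 alpha-TM180 arrays lay below NTG, while in alpha-TM175 array 2 was higher than any other. The difference was -0.55 ± 0.19 in alpha-TM180 (log2, SE), 0.685-fold (0.51 to 0.919, adjusted p 0.344), and -0.28 ± 0.21 in alpha-TM175, 0.824-fold (0.602 to 1.13, adjusted p 0.579). Its second probe set gave -0.62 in alpha-TM180 and -0.52 in alpha-TM175. The other degradation members were closer to NTG: Sel1l, which anchors the Hrd1 ligase complex, gave -0.12 in alpha-TM180 and -0.27 in alpha-TM175, and Edem1 0.05 in alpha-TM180 and 0.02 in alpha-TM175.

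**Figure D4:**
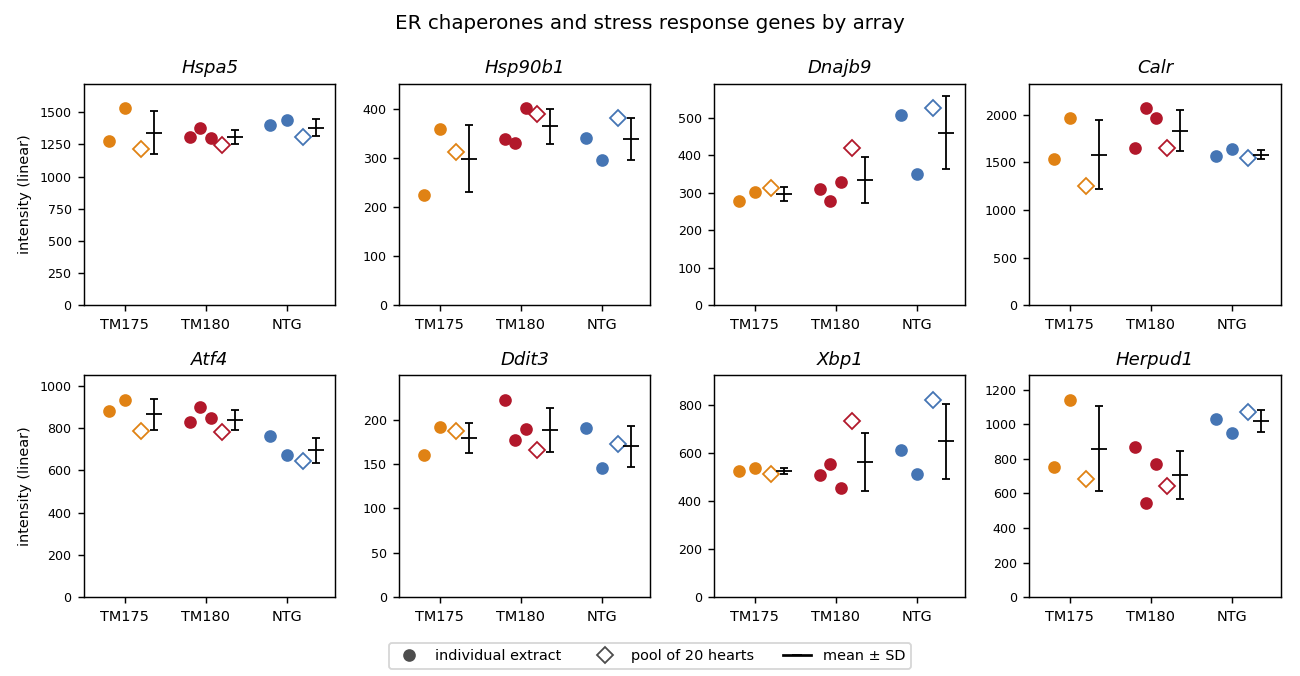
Intensity (linear, y axis) of 8 ER chaperone and stress response genes on each array, in alpha-TM175, alpha-TM180 and NTG from left to right. Circles are individual extracts, open diamonds pools of 20 hearts, and bars the mean ± SD. Atf4 lies above NTG on all 7 transgenic arrays, Herpud1 below it on the 4 alpha-TM180 arrays, Dnajb9 below it on the 3 alpha-TM175 arrays, and Hspa5 overlaps.

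The translocon members Sec61a1, Sec61b, Ssr1, Ssr2, Ssr3 and Ssr4 form the protein-conducting channel and the complex beside it. In alpha-TM180 their log2 differences ran from -0.09 (Ssr3) and -0.01 (Ssr2) to 0.20 (Ssr1) and 0.26 (Sec61b), and in alpha-TM175 from -0.34 (Ssr3) and -0.11 (Ssr2) to 0.06 (Sec61a1) and 0.21 (Ssr4). The Ssr4 probe sets did not show the same difference. A dimmer one gave -0.66 in alpha-TM175 and -0.20 in alpha-TM180, and the dimmest gave 0.21 in alpha-TM175 and -0.07 in alpha-TM180. Ssr3 in alpha-TM175 had an unadjusted p under 0.05 and an adjusted p of 0.37. Beyond the members, 37 further genes of the unfolded protein response and the ER gave medians of 0.08 in alpha-TM180 and 0.01 in alpha-TM175. None of the 37 passed in either line with or without extract type in the model, and 3 in alpha-TM180 and 4 in alpha-TM175 had an unadjusted p under 0.05. The stress response genes thus lay on both sides of NTG, with Atf4 above it in both lines and Herpud1 and Dnajb9 below it in mean.

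Set directly against alpha-TM175, alpha-TM180 had no called gene at all (0% of all genes, and 0.0323% with extract type in the model), and 0 members passed in either model. At an unadjusted p under 0.05 there were 4 members, where 14.4% of all genes passed: P4hb, Plod2, Ssr1 and Canx, each higher in alpha-TM180. P4hb was 1.35-fold (1.11 to 1.64, adjusted p 0.306) and Plod2 1.25-fold (1.07 to 1.46, adjusted p 0.306). These were also the only members whose arrays did not overlap; of all genes 7.25% were higher and 7.46% lower without overlap. With extract type in the model their adjusted p was 0.0867 and 0.0926.

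Serpinh1 and P4ha1 were 1.15-fold (0.818 to 1.61) and 1.24-fold (0.952 to 1.62) in alpha-TM180 over alpha-TM175. Among the stress genes the values were Hspa5 0.981-fold (0.843 to 1.14), Atf4 0.969-fold (0.834 to 1.13), Ddit3 1.05-fold (0.857 to 1.28), Xbp1 1.05-fold (0.798 to 1.39) and Herpud1 0.831-fold (0.619 to 1.12). All 7 collagen-processing members were above 0 with a median of 0.24, the 25 others had a median of 0.10, and all genes of -0.02. This median rested on alpha-TM175 array 1, which held the lowest value of 11 of the 32 members: without it the 7 had a median of 0.05 and the 25 a median of -0.01. Without that array P4hb gave 0.29, against 0.43 with it, Plod2 0.29, against 0.32, and Serpinh1 -0.03, against 0.20 (log2).

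Extract type was compared across genotypes. Pooled extracts differed from individual ones for 20.1% of all genes with genotype in the model, and for 1 of 32 members when the brightest probe set stood for each gene. With the mean of a gene's probe sets the count was 7 of 32 members, beside 23.6% of all genes. Ssr3 had 528.2, 669.6 and 690.8 on the pooled arrays of alpha-TM175, alpha-TM180 and NTG, against 436.5 to 591.8 on the individual arrays, 1.25-fold (1.10 to 1.41, adjusted p 0.0179). Among all 66 member probe sets 10 were called, against 22.2% of all probe sets. Of these 10, 9 were dimmer probe sets of genes whose brightest one did not pass.

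In Plod2 the log2 difference was the largest of the 10. Its dimmer probe set had 244.1, 386.7 and 238 on the pooled arrays and 73.53 to 108.7 on the individual ones, a log2 difference of 1.65 (adjusted p 2.12e-06), while the brighter probe set gave -0.13. Pooled and individual arrays did not overlap at all on the dimmer one. For Hsp90b1 the dimmer probe set gave 1.10 (adjusted p 0.00085) and the brighter 0.18, and for Dnajc3 dimmer ones gave 0.52 and 0.76 and the brightest -0.10. Whether the genotype differences differed between pooled and individual extracts could hardly be seen with 1 pooled array per line: a limma fit with genotype and extract type interacting called 0% of all genes and 0 members in either line, and 1 member in alpha-TM175 and 0 in alpha-TM180 had an unadjusted p under 0.05.

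**Figure D5:**
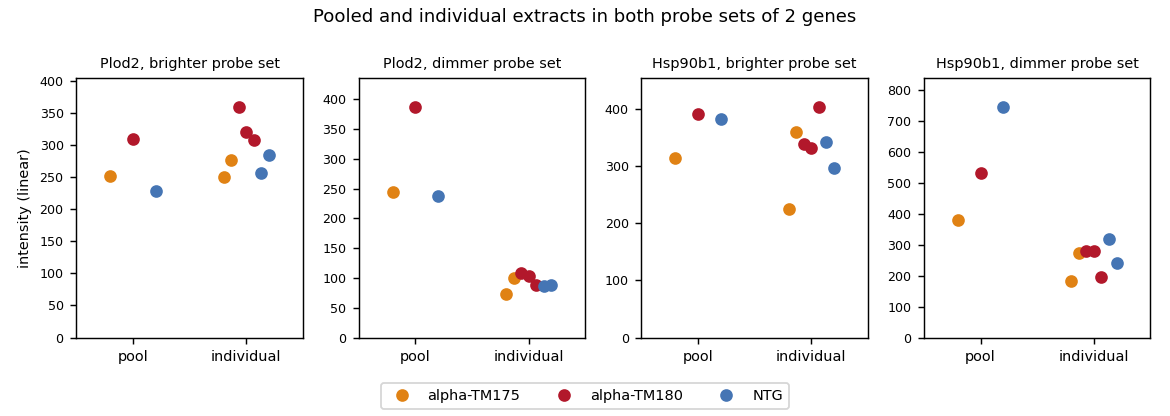
Intensity (linear, y axis) on pooled arrays and individual arrays (left and right in each panel) for the brighter and dimmer probe sets of Plod2 and Hsp90b1, coloured by genotype. The dimmer Plod2 probe set lies at 238 to 386.7 on pooled and 73.53 to 108.7 on individual arrays, with no such gap on the brighter one.

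Probe sets of 1 gene often differed in sign. Among the 18 members with more than 1 probe set, all probe sets had the same sign for 7 in alpha-TM180 and for 6 in alpha-TM175 against NTG, and for 9 in alpha-TM180 against alpha-TM175. The probe sets other than the brightest ranged from -0.62 to 0.31 in alpha-TM180 and from -0.66 to 0.38 in alpha-TM175, and none was called. Where a value above or below rests on 1 probe set of several, as for P4ha1, Plod2, Serpinh1, Hsp90b1, Dnajc3, Calr and Ssr4, it holds for that probe set.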

How the data were processed

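Ventricular RNA of 3 alpha-TM175, 4 alpha-TM180 and 3 NTG mouse extracts was hybridised to Affymetrix arrays. The deposited intensities are linear. RMA produced them, per the submitters' processing notes, and its version is not given in the sources used here. In the deposited intensities a point separated the last 3 digits of values of 1000 and above; it was undone for 7844 of 226900 values in 1057 probe sets before taking log2. For 228 probe sets the level stayed unsettled, none of them a member's.

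After 64 controls were set aside, 22626 probe sets were fitted in limma 3.58.1 (R 4.3.3; lmFit, eBayes), with 1 mean per genotype over all 10 arrays. Tests were two-sided, Benjamini-Hochberg adjustment ran over all probe sets with calls under 0.05, and the script was tested on simulated data. A fold change is 2 raised to the log2 difference, given with its 95% interval. Lists were described by counts and medians, without a test. Gene symbols are from GEO's platform annotation (20380 probe sets with 1 symbol, 691 with several, 1555 with none), and promoters from RefSeq. Summaries used pandas 2.3.3 and numpy 2.4.6 (Python 3.11.15), and figures matplotlib 3.10.9.

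Members and lists were chosen with earlier results of these data known. Full statistics are given for the collagen-processing members, Hspa5, Hsp90b1, Calr, Atf4, Ddit3, Xbp1 and any member called; of other members the 2 largest and 2 smallest differences of each list are named. Up to 5 called genes are named from each list outside the members. Array values of Dnajb9, Dnajc3 and Herpud1, and values of Canx and Manf, were added after they were seen. The labels do not say that extracts came from separate animals beyond calling them individual, so p-values measure the spread between these extracts. The number of arrays limits the precision. The deviations of same-numbered arrays had correlations of -0.534 to 0.707. The values -0.534 and -0.51 came from a pooled with an individual array, and 0.707 from pooled arrays. Pairs of individual arrays gave -0.113 to 0.485. Because both ends of the range involve pooled arrays, the correlations do not decide whether numbers pair samples. The arrays share only a number, so no pairing was assumed.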

Additional observations from a re-analysis of the deposited data

Results flagged for a closer look

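In the 4 alpha-TM180 arrays 4 of the 32 members tested had 1 array far from the others, by the gap to the nearest array as a share of the group's range. Chance flags about 1 in 20 groups. The share of all genes flagged by this rule was not counted, so no excess among the members can be read from it. Flags on the same array are not independent. Plod1 at 710.2, Creld2 at 146.5 and Pdia6 at 348.1 were high on array 2, an individual extract, where the gap made up 0.895, 0.899 and 0.947 of the range. Manf was low at 146.6 on array 3, with a gap of 0.848. Array 2 held the highest value of 10 of the 32 members and its 14 collagen chains summed to 16170, against 9746 to 13880 on the other alpha-TM180 arrays. The cause was not tested.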

How the results depend on the processing

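No member was called in a genotype comparison under renewed quantile normalization, median centring, a trend with robust fitting, individual extracts only, extract type in the model, leaving out any 1 array or the other alternatives run, except the following. With array weights, which called 5361 probe sets in alpha-TM175, 754 in alpha-TM180 and 2341 between the lines against 2, 114 and 0 without, 6 members passed in alpha-TM175 (Dnajb9, Canx and Ssr3 lower; Atf4, Pdia4 and Ssr4 higher), 2 in alpha-TM180 (Plod2 higher, Dnajb9 lower) and 3 in alpha-TM180 against alpha-TM175 (P4hb, Plod2 and Canx higher). With extract type in the model and NTG replicate 2 left out, a combination added after seeing the data, 3 passed in alpha-TM175 (Dnajb9, Canx and Ssr3, all lower), beside 1248 of 22626 probe sets; leave-one-out without extract type gave 0 in every genotype comparison. Between pooled and individual extracts the count of 1 became 0 with array weights, 3 with median centring, 2 with trend and robust fitting, 2 without unsettled probe sets, 7 with the mean of a gene's probe sets (beside 2928 of 12393 genes) and 0 at an adjusted p under 0.01, and 0 to 6 with 1 array left out. Under renewed quantile normalization the count stayed at 1, but the member was Atf4 (-0.26, adjusted p 0.025) and Ssr3 no longer passed. With the replicate block it was 0, and the block left the genotype counts at 0 while calling 1, 32 and 0 probe sets; the arrays share only a number. Extract type in the model called 195 probe sets in alpha-TM175, 454 in alpha-TM180 and 6 between the lines, and with 1 array left out as well 5 (without alpha-TM180 replicate 4) to 1248 (without NTG replicate 2), 99 (without NTG replicate 3) to 484 (without alpha-TM175 replicate 1) and 0 to 885 (without NTG replicate 1). With 1 array left out, alpha-TM180 against NTG had 8 probe sets called (without NTG replicate 1) to 135 (without alpha-TM180 replicate 1). The median of the collagen-processing members ran from 0.21 to 0.36 in alpha-TM180, -0.07 to 0.14 in alpha-TM175 and 0.05 to 0.41 between the lines, and that of the others from -0.01 to 0.13, -0.14 to 0.03 and -0.01 to 0.20. Except as shown above the cause was not tested.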
